A study of Mus musculus with 8 samples.

Results

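Effector and memory CD8 T cells are set apart by a small group of transcription factors, and 10 of their genes were followed here: Tbx21, Eomes, Prdm1, Id2, Id3, Zeb2, Runx3, Bhlhe40, Nfil3 and Tox. They were chosen by name, and their probe sets were those to which the platform annotation gives that symbol alone. All 10 had a probe set, 14 probe sets among 22690 in all, and 9 of the 10 were among the 8003 genes tested. Tox read just under the filter on low values.

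In an activated CD8 T cell, T-bet (the product of Tbx21), Blimp-1 (Prdm1), Id2 and Zeb2 favour the short-lived effector state, while Id3 marks cells that persist as memory. Eomes, the T-box relative of T-bet, takes part in both. Runx3 is the lineage factor of CD8 T cells, Bhlhe40 and Nfil3 are induced on activation, and Tox is best known from T cells under lasting stimulation.

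There were activated CD8 T cells of OT-1 mice after 4 h with ID8 cells made to overexpress PD-L1 (4 arrays), a ligand of the T cell checkpoint PD-1. They were set against cells of the same culture scheme with ID8 cells depleted of PD-L1 (4 arrays). OT-1 is a transgenic T cell receptor that recognises a peptide of ovalbumin, so all T cells were OT-1 and all ID8 targets, a mouse ovarian cancer line, carried the peptide. There were 4 mice, A to D, whose cells went to both kinds of target at 30 T cells per target cell, and the T cells were recovered by magnetic separation. The age and strain background of the mice and the way PD-L1 was raised or depleted are not given in the labels. The arrays read total RNA of the recovered cells, in which fewer cells of a type and less RNA per cell cannot be told apart.

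The values were the deposited log2 expression values of a 3' expression array, 3.60 to 15.24 over all probe sets, and pairs of arrays had correlations of 0.994 to 0.998. Markers of the labelled cell type were present: all 6 CD8 T cell genes (Cd3d, Cd3e, Cd3g, Cd247, Cd8a, Cd8b1) were tested, with a list mean of 12.29 to 12.47. Target cell genes were also read. Over 10 tested of 17 tumour cell markers the list mean, PD-L1-overexpressing minus PD-L1-depleted, differed by 0.67, 0.52 and 0.66 in mice A, C and D and by -0.96 in mouse B. Mouse B thus ran against the others in target cell RNA. Whether the target labels of its 2 arrays are crossed was not tested, and if they were, the sign of each mouse B difference given here would turn. Member and list results between targets are therefore also summarised without mouse B. Both NK cell markers on the array, Ncr1 and Klra8, were under the filter.

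The promoters of 4 members are shown: Runx3, smallest in p between targets but not passing, and Id2, Id3 and Tbx21, called between mice. Each runs from 250 bases before to 50 after a gene start in the RefSeq annotation of GRCm38.p6, 5' to 3' on the gene's strand, and 8 of the 10 members have an entry. Capitals mark 3 motifs searched on both strands: TGTGGT, the core bound by RUNX proteins, AGGTGT, a half-site of T-box proteins, and CANNTG, the E-box of the E proteins that Id proteins sequester.
Runx3, chr4:135120395-135120694, plus strand: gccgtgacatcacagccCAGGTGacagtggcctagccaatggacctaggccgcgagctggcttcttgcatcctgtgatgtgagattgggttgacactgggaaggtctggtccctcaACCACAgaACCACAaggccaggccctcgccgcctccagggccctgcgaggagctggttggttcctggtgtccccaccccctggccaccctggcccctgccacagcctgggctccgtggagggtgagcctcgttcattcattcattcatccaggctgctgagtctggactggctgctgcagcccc
Id2, chr12:25096043-25096342, minus strand: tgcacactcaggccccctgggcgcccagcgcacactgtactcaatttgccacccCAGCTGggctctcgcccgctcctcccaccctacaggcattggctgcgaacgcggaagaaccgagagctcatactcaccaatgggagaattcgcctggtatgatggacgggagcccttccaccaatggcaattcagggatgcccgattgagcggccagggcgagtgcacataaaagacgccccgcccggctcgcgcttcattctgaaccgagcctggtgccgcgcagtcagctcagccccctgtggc
Id3, chr4:136143572-136143871, plus strand: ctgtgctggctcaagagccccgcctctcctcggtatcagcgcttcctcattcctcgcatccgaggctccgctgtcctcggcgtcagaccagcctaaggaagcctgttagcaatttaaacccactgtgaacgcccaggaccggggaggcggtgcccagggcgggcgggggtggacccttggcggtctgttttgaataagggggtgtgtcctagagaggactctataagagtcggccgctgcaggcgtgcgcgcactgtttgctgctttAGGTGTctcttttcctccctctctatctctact
Tbx21, chr11:97115282-97115581, minus strand: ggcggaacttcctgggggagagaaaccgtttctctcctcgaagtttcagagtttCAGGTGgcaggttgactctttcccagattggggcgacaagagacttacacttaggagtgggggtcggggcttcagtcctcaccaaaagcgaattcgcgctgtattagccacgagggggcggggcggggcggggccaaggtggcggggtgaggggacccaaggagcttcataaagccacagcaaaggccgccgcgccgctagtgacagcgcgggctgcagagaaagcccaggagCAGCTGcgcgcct
The marked motifs do not overlap one another in these windows. The Runx3 window, at the first of 2 starts listed for the gene, held 2 RUNX cores, both read as their reverse complement, and 1 E-box. The window at the other Runx3 start held 0 RUNX cores and 1 E-box. At least 2 RUNX cores stood in 1.80% of 32544 promoter windows and at least 1 in 16.7%. The Id2 window held 1 E-box and that of Tbx21 held 2, while 72.3% of all windows had at least 1. The Id3 window had no E-box and 1 T-box half-site, a motif found in 13.8% of windows. A match is a run of letters and not a shown binding site.

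The first comparison asked whether the fate factor genes differ between T cells that met abundant and those that met scarce PD-L1. None of the 9 passed: limma with the mouse as a block called 0 members and 0% of all 8003 genes at an adjusted p under 0.05 (adjusted p = 0.9995 for each member). Of the 9, 4 were higher and 5 lower with PD-L1-overexpressing targets. Their median difference was -0.0019 on the log2 scale, against 0.0033 over all genes tested. All 9 intervals (95%) lay inside 1.5-fold in either direction, as did those of 7956 of the 8003 genes.

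**Figure D1:**
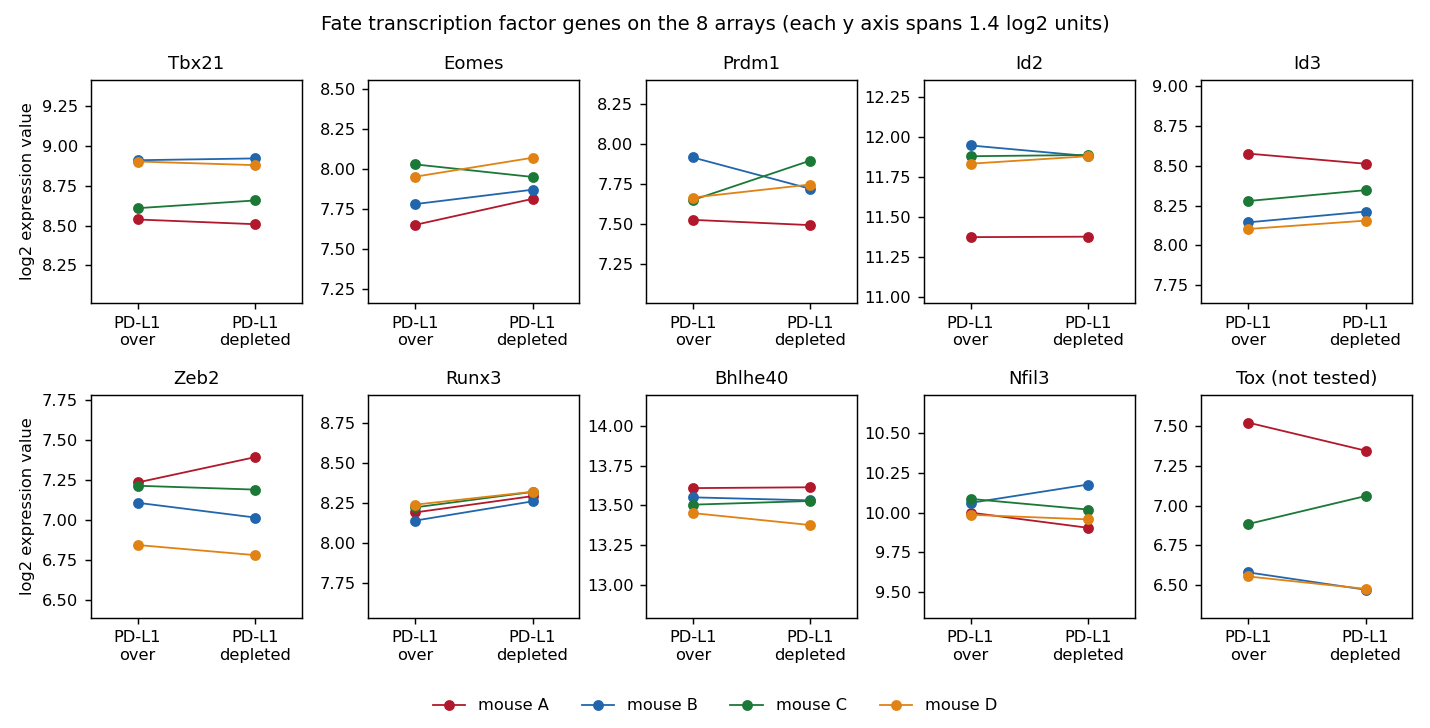
Log2 expression value (y axis) of the probe set with each gene's highest mean on every array, PD-L1-overexpressing targets on the left and PD-L1-depleted on the right, with a line joining the arrays of 1 mouse. Only the lines of Runx3 slope the same way in all 4 mice. They are not the steepest, with a largest gap within a mouse of 0.12 against 0.25 for Prdm1. Mouse A lies apart from the other mice for Id2, Id3 and Tox.

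Runx3, which holds the CD8 lineage programme and supports cytotoxic genes, was the member with the smallest p. It read 8.19, 8.14, 8.22 and 8.24 in mice A to D with PD-L1-overexpressing targets, against 8.29, 8.26, 8.32 and 8.32 with PD-L1-depleted targets. The groups did not overlap, and the value was lower with PD-L1-overexpressing targets in 4 of 4 mice as labelled. Both statements need mouse B's labels to be right, since with crossed labels its -0.12 would turn positive. In mice A, C and D alone all 3 were lower and the groups did not overlap either. In these 3 mice 3 of the 9 members went one way, Runx3, Id2 and Nfil3, and only Runx3 had groups that do not overlap. The share of all genes that do so in 3 mice was not computed, and fewer arrays separate more easily. Over all 4 mice the Runx3 mean was 8.20 ± 0.044 for PD-L1-overexpressing targets, against 8.30 ± 0.028 for PD-L1-depleted ones (SD, n = 4 each). The limma difference was -0.10 (SE 0.044, 95% interval -0.20 to -0.00036), with an unadjusted p of 0.049 and an adjusted p of 0.9995, so it did not pass. Of all genes tested, 2.85% had an unadjusted p under 0.05, 10.5% went one way in all 4 mice and 0.45% (36 genes) had groups that do not overlap. Runx3 was the only 1 of the 9 members in each of these counts.

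Target and mouse weighed on Runx3 the other way round from the other members. Of its variance over the 8 arrays as labelled, 70.9% lay between targets and 27.6% between mice. Runx3 was picked out by its p between targets, so its large share there is no separate support. These shares were not computed over all genes, and they too need mouse B's labels to be right. For the other 8 the share between targets ran from 0.0025% in Id2 to 7.94% in Eomes, and the share between mice from 67.6% in Prdm1 to 99.2% in Id2. Without mouse B the Runx3 difference was -0.093 (SE 0.052, limma adjusted p = 0.505). In that fit 2.2% of all genes passed and 0 of the 9 members did, with 3 higher, 6 lower and a median of -0.019. The other 8 ran from -0.099 in Prdm1 to 0.064 in Nfil3.

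The T-box pair gave small differences. Tbx21, which drives the interferon-gamma and cytotoxic genes of effector cells, read 8.54, 8.91, 8.61 and 8.90 in mice A to D with PD-L1-overexpressing targets and 8.51, 8.92, 8.66 and 8.88 with PD-L1-depleted targets. The groups nearly coincided, with means of 8.74 ± 0.19 and 8.74 ± 0.19 (SD, n = 4 each) and a difference of -0.0019 (SE 0.041, 95% interval -0.094 to 0.091). Eomes, which acts with T-bet in cytotoxic cells and sustains memory cells, read 7.65, 7.78, 8.03 and 7.95 with PD-L1-overexpressing and 7.81, 7.87, 7.95 and 8.07 with PD-L1-depleted targets. It was lower with PD-L1-overexpressing targets in 3 of 4 mice, with overlapping groups (-0.073, SE 0.057, 95% interval -0.20 to 0.055). The other Eomes probe set had a difference of 0.016 (SE 0.067) in a fit of every probe set, of opposite sign.

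Id2 and Id3 are small proteins that bind E proteins and keep them off DNA. Id2 read 11.37, 11.95, 11.88 and 11.83 with PD-L1-overexpressing and 11.38, 11.88, 11.89 and 11.88 with PD-L1-depleted targets. It had the second narrowest interval of the members, with a difference of 0.0022 (SE 0.027, 95% interval -0.059 to 0.063). The other 2 Id2 probe sets had differences of -0.080 (SE 0.053) and -0.051 (SE 0.047) in a fit of every probe set, of opposite sign, and neither passed. Id3 read 8.58, 8.15, 8.28 and 8.10 with PD-L1-overexpressing and 8.51, 8.21, 8.35 and 8.16 with PD-L1-depleted targets. Its groups overlapped, at a difference of -0.031 (SE 0.047, 95% interval -0.14 to 0.075).

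Prdm1, the gene of the repressor Blimp-1, went both ways between targets. It read 7.53, 7.92, 7.65 and 7.67 with PD-L1-overexpressing targets and 7.49, 7.72, 7.90 and 7.75 with PD-L1-depleted targets. The difference was 0.20 in mouse B and -0.25 in mouse C, and -0.025 over the mice (SE 0.074, 95% interval -0.19 to 0.14). Zeb2, a repressor that works with T-bet in terminal effector cells, read 7.23, 7.11, 7.21 and 6.84 with PD-L1-overexpressing and 7.39, 7.01, 7.19 and 6.78 with PD-L1-depleted targets. Its groups overlapped (0.0054, SE 0.067, 95% interval -0.15 to 0.16).

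Bhlhe40, a factor of activated T cells that supports cytokine output, read 13.61, 13.55, 13.50 and 13.45 with PD-L1-overexpressing and 13.61, 13.53, 13.53 and 13.38 with PD-L1-depleted targets. The difference was 0.016 (SE 0.021, 95% interval -0.030 to 0.063). Nfil3, a basic leucine zipper factor of activated lymphocytes, read 9.999, 10.06, 10.09 and 9.99 with PD-L1-overexpressing and 9.90, 10.18, 10.02 and 9.96 with PD-L1-depleted targets. Neither gene separated the targets, and the Nfil3 difference was 0.019 (SE 0.042, 95% interval -0.075 to 0.11). In mice A, C and D Nfil3 was the higher with PD-L1-overexpressing targets, and in B the lower, the same signs as the list mean of the tumour cell markers. The part of target RNA in the Nfil3 values was not tested.

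**Figure D2:**
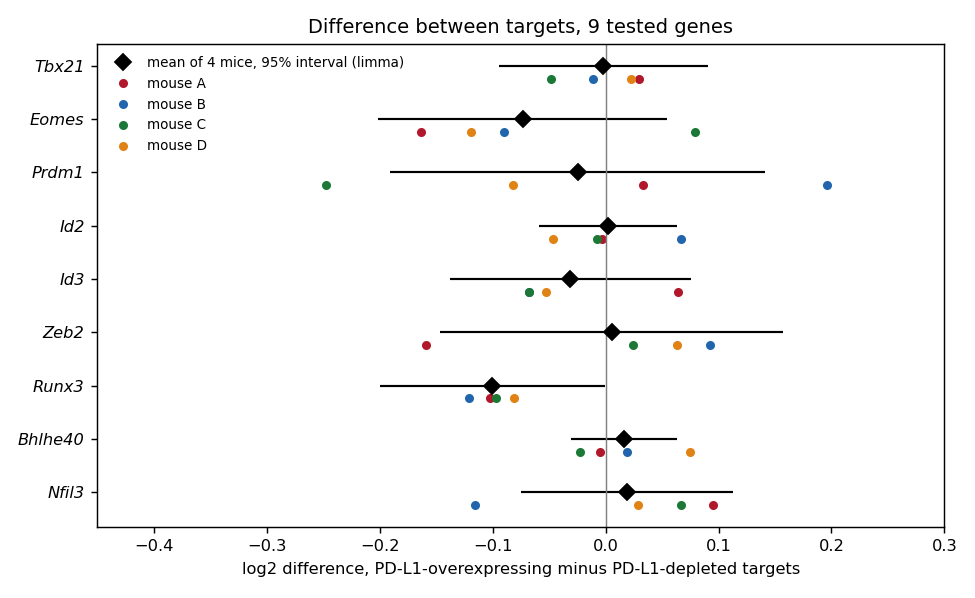
Log2 difference (x axis), PD-L1-overexpressing minus PD-L1-depleted targets, for the 9 tested genes. Diamonds and lines give the limma mean over 4 mice with its 95% interval, and dots give each mouse. The dots of Runx3 all lie below 0, between -0.12 and -0.081, and those of the other genes fall on both sides.

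The second comparison asked how the fate factor genes vary between animals. Of the 9 members, 5 differed between the 4 mice (moderated F test of limma, target in the model, adjusted p under 0.05), namely Tbx21, Id2, Id3, Zeb2 and Bhlhe40, against 29.3% of all genes tested. The count was 1 without mouse A, 3 without mouse D and 4 with no trend in eBayes. It was 7 without mouse B, and 6 both with array weights and with the mean of probe sets. The share of all genes called in these fits was not computed. The members' mouse means spanned a median of 0.31 between the highest and lowest mouse, against 0.19 over all genes, and 0 of 9 spanned over 2-fold. Each mouse gave 1 array per target, so the error behind these p-values is the spread among co-cultures that share an animal.

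Mouse A lay apart, with its members moving both ways. Tbx21, Eomes, Prdm1 and Id2 were lower in mouse A than in the mean of the others, 4 of 9 members where 12.7% of all genes were lower. Id3, Zeb2 and Bhlhe40 were higher there, 3 of 9 where 18.1% of all genes were higher. Runx3 and Nfil3 did not pass in any mouse.

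**Figure D3:**
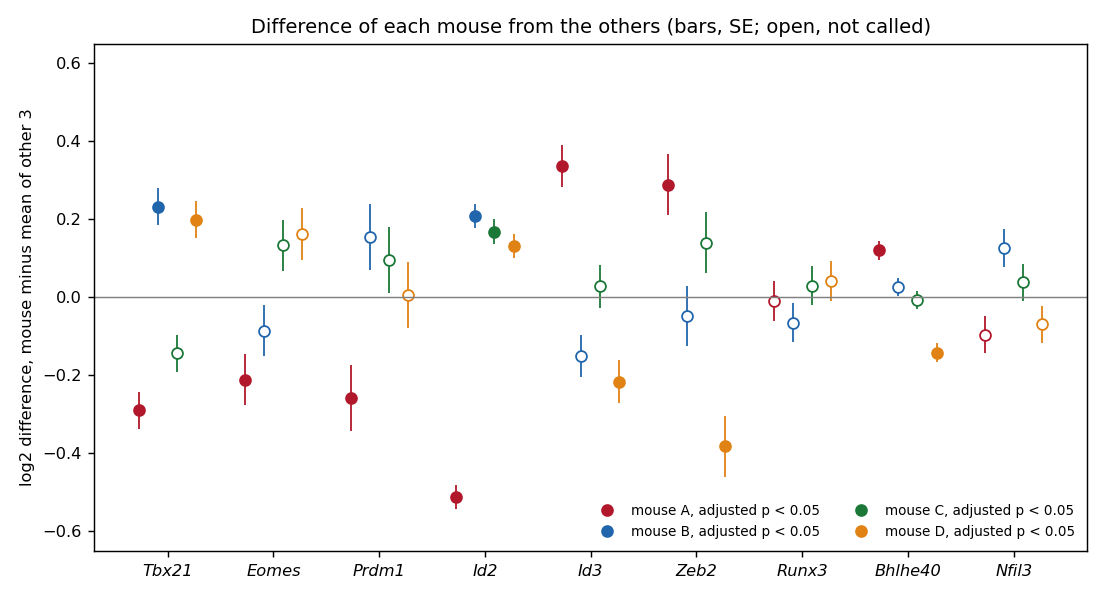
Log2 difference of each mouse from the mean of the other 3 (y axis) for the 9 tested genes, with limma SE bars. Filled dots passed at an adjusted p under 0.05. Mouse A is filled for 7 genes, from -0.51 for Id2 to 0.34 for Id3, and mouse D is opposite to it for Id3, Zeb2 and Bhlhe40.

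Id2 carried the widest of these differences. Its 11.37 and 11.38 in mouse A stood below the 11.83 to 11.95 of the 6 other arrays, a 1.43-fold lower level (-0.51, SE 0.031, limma adjusted p = 5.4e-06). Id2 was higher in mice B (0.21), C (0.17) and D (0.13) than in means that include mouse A (SE 0.031 each, limma adjusted p = 0.0041, 0.013 and 0.032). The call in C was lost with the mean of its probe sets (limma adjusted p = 0.63) and with no trend in eBayes (0.066). That in D was lost with the mean of its probe sets (limma adjusted p = 0.22), with no trend (0.12) and with median centring (0.056). Without mouse A no difference in Id2 between mice was called (F test adjusted p = 0.598). In the order of levels, B, C, D and A, the steps from B to C and from C to D did not pass. The step from D to A did, with D higher by 0.48 (SE 0.038, limma adjusted p = 3.4e-05). Apart from the fit on the mean of probe sets, these values are those of 1 of the 3 Id2 probe sets. The other 2 put mouse B further from the rest, at 0.45 and 0.58 in a fit of every probe set (limma adjusted p = 0.0048 and 0.00053).

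Id3 was highest in the mouse where Id2 was lowest. It read 8.58 and 8.51 in mouse A and at most 8.35 elsewhere, 1.26-fold higher in A (0.34, SE 0.054, limma adjusted p = 0.0018), and was lower in mouse D (-0.22, SE 0.054, adjusted p = 0.042). The call in D was lost without mouse A (-0.12, adjusted p = 0.44) and with no filter (adjusted p = 0.068). From the highest mouse down the order was A, C, B and D, and only A and C were neighbours that differed (0.23, SE 0.067, adjusted p = 0.034). Over the 8 arrays Id2 and Id3 had a Pearson r of -0.878, a description of 4 animals with a pair of arrays each.

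Tbx21 put the mice in pairs. It was lower in mouse A (-0.29, SE 0.047, 1.22-fold, limma adjusted p = 0.0019) and higher in mice B (0.23, SE 0.047, adjusted p = 0.017) and D (0.20, SE 0.047, adjusted p = 0.032). Without mouse A these were 0.15 in B and 0.12 in D, and neither passed (limma adjusted p = 0.14 and 0.39). The call in B was also lost with array weights and without C (adjusted p = 0.069 and 0.052), and that in D with no filter and without C (0.055 and 0.069). Mouse C did not differ from A beyond the error (0.11, SE 0.058), and the step between D and C, 0.26 (SE 0.058, limma adjusted p = 0.049), was the only step between neighbours that passed. Tbx21 was also the only member still called between the mice when A was left out (F test adjusted p = 0.048).

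Zeb2 and Bhlhe40 were both highest in mouse A and lowest in mouse D. Zeb2 was higher in mouse A (0.29, SE 0.078, limma adjusted p = 0.021) and lower in mouse D (-0.38, SE 0.078, adjusted p = 0.017), which made A 1.42-fold higher than D. Zeb2 was tested on its mean of 7.10, but its values in mouse D, 6.84 and 6.78, lay under the filter at 6.872. How far such low values affect the 1.42-fold was not tested. Bhlhe40 spanned less, 0.12 higher in A (SE 0.024, adjusted p = 0.0052) and -0.14 in D (SE 0.024, adjusted p = 0.0073). No step between neighbours passed for either gene. Without mouse D neither was called in A (limma adjusted p = 0.18 and 0.056), and without mouse A neither in D (0.11 and 0.071). With no trend in eBayes Bhlhe40 was called in neither mouse (0.063 in A and 0.10 in D). Their Pearson r over the 8 arrays was 0.886, and Tbx21 had r of -0.835 with Zeb2 and -0.909 with Id3.

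Eomes and Prdm1 were lower in mouse A by smaller margins against their error, at -0.21 (SE 0.065, limma adjusted p = 0.037) and -0.26 (SE 0.085, adjusted p = 0.047). Neither passed the F test over the 4 mice in the main fit (adjusted p = 0.059 and 0.14), and with no filter on low values neither was called in A (adjusted p = 0.059 and 0.065). Eomes passed the F test with array weights (adjusted p = 0.025) and with the mean of probe sets (0.027). Without mouse B both genes passed it (F test adjusted p = 0.0089 and 0.030). Nfil3 (F test adjusted p = 0.14) and Runx3 (0.66) did not pass, and the mouse means of Runx3 spanned 0.080, a range wider than that of 9.73% of the tested genes. Over the members, 3 of 27 steps between neighbouring mice passed, and the share of such steps over all genes was not computed.

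By pairs of mice, the calls fell mostly on pairs with mouse A. Between A and B 3 members were called, where 21.6% of all genes were, between A and C 4 (25.2%) and between A and D 6 (25.5%). Between B and C (8.33%), B and D (3.95%), and C and D (3.22%) 1 member each was called, Tbx21, Bhlhe40 and Tbx21. Against the mean of the others, mouse B had 2 members higher (6.3% of all genes) and 0 lower (2.96%). Mouse C had 1 higher (3.09%) and 0 lower (5.35%), and mouse D had 2 higher (4.56%) and 3 lower (4.09%).

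Tox, a factor that keeps chronically stimulated T cells alive, read 7.52, 6.58, 6.88 and 6.56 with PD-L1-overexpressing and 7.34, 6.47, 7.06 and 6.48 with PD-L1-depleted targets. Mouse A was the highest on both targets, and the mean of 6.862 fell just short of the filter at 6.872, so Tox was not tested with the other members. In the planned fit with no filter, over 12393 genes, the difference between targets was 0.047 (SE 0.074, limma adjusted p = 0.998). There Tox differed between mice (F test adjusted p = 0.00053, with 17.4% of all genes called) and was higher in mouse A by 0.76 (SE 0.085, adjusted p = 0.00019, with 10.6% called higher). It was lower in mouse B (-0.45, adjusted p = 0.015, with 1.77% called lower) and in mouse D (-0.46, adjusted p = 0.013, with 2.24% called lower). The values in these mice, 6.47 to 6.58, lay under the filter. The other Tox probe set gave -0.26 in B and -0.19 in D in a fit of every probe set, and neither passed (limma adjusted p = 0.19 and 0.40).

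Where a gene had several probe sets, mouse A kept its side. The 3 Id2 probe sets gave differences of -0.51, -0.56 and -0.49 for mouse A in a fit of every probe set, which was chosen after the data were seen (limma adjusted p from 1.2e-05 to 0.00041). They disagreed on mouse C, at 0.17, 0.035 and -0.11, of which only the first, from the probe set with the highest mean, passed. The Eomes probe sets gave -0.21 and -0.23 in mouse A and the Tox probe sets 0.76 and 0.28, and of these 4 only the first Tox value passed (limma adjusted p = 0.00040).

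**Figure D4:**
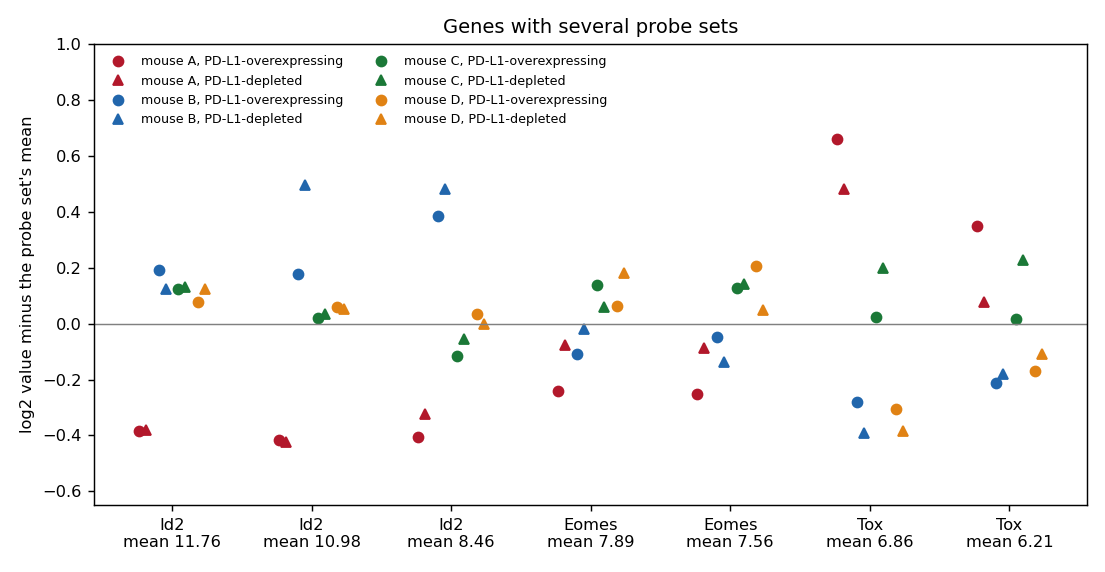
Log2 value minus the probe set's mean (y axis) for every probe set of Id2, Eomes and Tox, with the probe set's mean under its name, by mouse (colour) and target (circles overexpressing, triangles depleted). Mouse A is lowest in all 3 Id2 probe sets, and mouse B is at 0.58 over the others in the third.

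Other fate factors and their partners also moved both ways between mice. Of a list of 34 such genes 25 were tested, and between targets 0 passed, with 9 higher, 16 lower and a median of -0.0091. Between mice 16 of the 25 passed the F test, where 29.3% of all genes did. In mouse A 10 were higher (18.1% of all genes) and 7 lower (12.7%), and in B 5 (6.3%) and 0 (2.96%). In mouse C 2 were higher (3.09%) and 4 lower (5.35%), and in D 3 (4.56%) and 7 (4.09%). Without mouse B 0 of the 25 passed between targets, with 7 higher, 18 lower and a median of -0.015.

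Klf2, a factor of quiescent and recirculating T cells, read 8.39, 9.85, 8.82 and 9.23 with PD-L1-overexpressing and 8.12, 10.31, 8.92 and 9.10 with PD-L1-depleted targets. It was low in mouse A (-1.12, SE 0.12, limma adjusted p = 0.00014) and high in mouse B (1.32, SE 0.12, adjusted p = 0.0002). Satb1, a chromatin organiser of T cell development, was higher in mouse A (0.36, SE 0.035, limma adjusted p = 9.6e-05), as was Lef1, a factor of naive and memory cells (0.27, SE 0.052, adjusted p = 0.0045). Hopx, a cofactor of effector memory cells, was lower there (-0.42, SE 0.041, adjusted p = 0.00011). Lef1 was lowest in mouse C (-0.53, SE 0.052, adjusted p = 0.00046). Between targets the smallest p in this list belonged to Runx1, the paralogue of Runx3, at -0.11 (SE 0.060), and to Id4, a relative of Id2 and Id3, at -0.13 (SE 0.077), with limma adjusted p = 0.9995 for both. Without mouse B they were -0.13 (SE 0.066) and -0.21 (SE 0.069), and neither passed (adjusted p = 0.44 and 0.18).

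Among 22 genes known to be regulated by the members in T or NK cells, 14 were tested. In mouse A 7 were lower and 2 higher, where 12.7% and 18.1% of all genes were, and 13 of the 14 passed the F test between mice, where 29.3% of all genes did. The chemokine gene Ccl5, a T-bet target, read 10.14 and 10.27 in mouse A and 11.31 to 11.65 in the others (-1.26, SE 0.041, limma adjusted p = 9e-08). Havcr2, which encodes the inhibitory receptor TIM-3, was lower in mouse A (-0.78, SE 0.045, adjusted p = 3.9e-06), as was the pore-forming Prf1 (-0.32, SE 0.038, adjusted p = 0.00031). Prf1 departed most in mouse C, where it was higher (0.65, adjusted p = 3e-05), and was also lower in mouse B (-0.27, adjusted p = 0.003). Il2, a gene that Blimp-1 represses, went the other way, higher in A by 1.17 (SE 0.086, adjusted p = 1.6e-05). The genes thus moved both ways in mouse A, as the members did.

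Between targets 0 of these 14 passed, with 7 higher, 7 lower and a median of -0.0025. Cx3cr1, a receptor gene of terminal effector cells that depends on T-bet and Zeb2, read 7.04, 7.13, 7.23 and 7.17 with PD-L1-overexpressing and 7.40, 7.45, 7.48 and 7.42 with PD-L1-depleted targets. Its groups did not overlap (-0.30, SE 0.058, limma adjusted p = 0.9995), as was the case for 0.45% of all genes tested. Its values, 7.04 to 7.48, lay near the filter on low values at 6.872. Tbx21 and Zeb2 differed by -0.0019 and 0.0054, and their part in the Cx3cr1 difference was not tested. Without mouse B Cx3cr1 passed, lower with PD-L1-overexpressing targets (-0.29, SE 0.069, limma adjusted p = 0.029), the only 1 of the 14 to do so, where 2.2% of all genes passed. The median of the 14 was then -0.021, from 3 higher and 11 lower genes. Havcr2 was next in this list by p with all mice, at 0.078 (SE 0.039), and at 0.044 (SE 0.040) without mouse B.

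**Figure D5:**
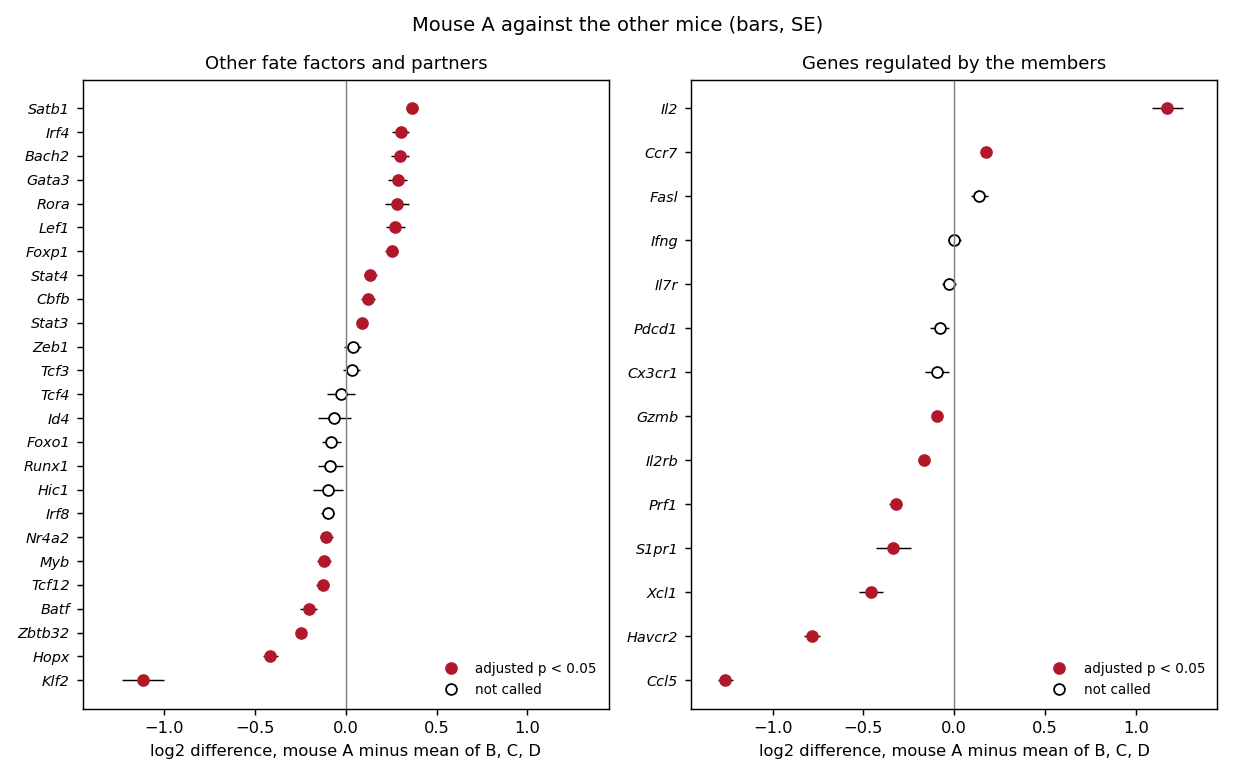
Log2 difference of mouse A from the mean of the other 3 mice (x axis, bars give the limma SE) for 25 other fate factors (left) and 14 genes regulated by the members (right). Klf2 and Ccl5 lie lowest, at -1.12 and -1.26, and Il2 highest, at 1.17.

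Markers of other cells moved with the mice. The 4 tested of 10 B cell markers (Cd74, H2-Aa, H2-Ab1, Ighm) had a list mean of 10.02 and 10.05 in mouse A, 11.35 and 11.29 in B, 10.19 and 10.28 in C and 10.92 and 10.96 in D. The list mean put the mice in the order of Tbx21, from B through D and C to A, of which only the step between D and C passed for Tbx21. Single genes did so in H2-Aa, which spanned most, and H2-Ab1, while Cd74 was lowest in mouse C and Ighm highest in D. The defining B cell genes Cd79a, Cd79b, Pax5, Blk and Ms4a1 read under the filter on low values. The CD8 T cell list had 4 of 6 genes lower in mouse A, where 12.7% of all genes were lower, with a list mean of 12.29 and 12.33 in A and 12.44 to 12.47 in the others. The tumour cell list mean ran from 7.77 to 8.45 in mouse A and from 7.82 to 8.89 in the others, with 2 of 10 genes lower in A and 0 higher (12.7% and 18.1% of all genes). The 2 tested macrophage and dendritic cell markers averaged 7.76 to 7.90 in A and 7.80 to 8.25 elsewhere. The 3 tested CD4 and regulatory T cell markers averaged 8.53 to 8.64 in A and 8.41 to 8.52 elsewhere. Of these Ikzf4 was higher in A (0.42, limma adjusted p = 0.00049), Cd4 (-0.093) and Zbtb7b (-0.0035) did not pass, and Foxp3 was under the filter. The part of these cells in the members' differences was not tested.

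The genes whose levels followed a member most closely over the 8 arrays are given as a description, since the arrays come from 4 animals. Closest to Tbx21 were Zfp982 and Cxcl10, an interferon-inducible chemokine gene (r of 0.996 and 0.994). Id2 was followed by Higd2a and Ctla2b (0.993 and 0.992), and Id3 by Lat, an adaptor of the T cell receptor, and Bcl2l1, a survival gene (0.987 and 0.985). Bhlhe40 was followed by Simc1 and Agap3 (0.988 and 0.984), Zeb2 by Rgcc and Mef2d (0.984 and 0.973), and Eomes by Gstt3 and the interferon-inducible Mx2 (0.977 and 0.975). Prdm1 came with Ap4m1 and Plp2 (0.974 and 0.961), Nfil3 with Dnajb9 and Sat1 (0.972 and 0.966), and Runx3 with Sry and Gpc6 (0.928 and 0.912).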

How the data were processed

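Each of 8 samples of CD8 T cell RNA was read on 1 biotin-labelled 3' expression array, per the labels' protocols. The deposited values are log2 expression values per probe set. That they are log2 was taken from their range, and the authors' method of summarising and normalising probes is not given in the sources used here. Once sorted, the 8 arrays differed by at most 0.167 at any rank, and a shift common to most genes may not show in such values. Precision is limited by the 4 arrays per group. The table held 0 columns of other samples.

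After 64 control probe sets were left out, 20380 probe sets had 1 gene symbol, 691 several and 1555 none. The probe set with the highest mean stood for its gene (12393 genes), and genes whose mean was below 6.872 (percentile 40 of the means of all probe sets but controls) were not tested, which left 8003. Symbols were checked against the RefSeq table by Entrez identifier, and 0 changed.

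All tests used limma 3.58.1 in R 4.3.3 across all tested genes (lmFit, eBayes with a trend, two-sided, Benjamini-Hochberg, threshold 0.05). Mouse was a fixed block in the fit between targets, since the titles give the same mouse letters to both groups. Deviations from the group means correlated within mice A, B, C and D at 0.82, 0.16, 0.61 and 0.64. Mice were compared in a fit with the target as covariate. The fits were tested on simulated data first.

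The members and lists were chosen with earlier results of these data known. Named genes were all members, the 2 genes most like each, and from each list 4 genes by lowest p of the F test and 2 by lowest p between targets. Genes within a marker list are named to say what the list held. Alternatives were other scaling, no filter, the mean of probe sets, eBayes without a trend, array weights, other blocks and leaving out each mouse.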

Additional observations from a re-analysis of the deposited data

Results flagged for a closer look

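For all 14 probe sets, the distance of a group's most extreme array to the next array was taken as a share of that group's spread from lowest to highest. Chance alone puts around 1 in 20 such groups of 4 values past Dixon's 95% critical value, which is 1.4 of 28, and 1 of the 28 passed it. That was the Id2 probe set with the highest mean, with PD-L1-depleted targets, where mouse A was lowest at 11.38 and the gap made up 0.985 of the range.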

How the results depend on the processing

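In every alternative run, 0 members passed between targets, the fits with no replicate block (0) and with the mouse as a random block included. The difference of Runx3 kept its sign in all of them and ran from -0.11 to -0.093 over the fits that left out a mouse. Differences near 0 changed sign: Id2 was at -0.0039 after quantile normalization, -0.043 with the mean of its probe sets and -0.015 with array weights, Tbx21 at 0.0062 after median centring and 0.0056 with array weights, and Zeb2 at -0.00015 with array weights. Leaving out a mouse gave ranges across 0 for Tbx21 (-0.012 to 0.014), Id2 (-0.019 to 0.019), Zeb2 (-0.024 to 0.060), Prdm1 (-0.099 to 0.049), Bhlhe40 (-0.0031 to 0.030) and Nfil3 (-0.0066 to 0.064). None of these values passed in any fit.

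Results between mice rested on mice A and D. The count of members differing between mice, 5, ran from 1 to 7 when a mouse was left out, with 1 left without A and 3 without D. The 15 calls of a mouse against the others became 1 to 13, with 1 without A and 6 without D. The 16 calls between pairs of mice became 1 to 14, with 1 without A, 9 without C and 4 without D, and 10 with every probe set as a feature of its own and no filter, an alternative chosen after the data were seen. Fewer mice leave fewer pairs and contrasts to test. Id2 in mouse C ran from -0.0015 to 0.27 and in mouse D from -0.043 to 0.23 over these fits. Eomes and Prdm1 lost their call in mouse A with no filter (adjusted p = 0.059 and 0.065) and without mouse C (0.068 and 0.053) or D (0.14 and 0.071). Zeb2 and Bhlhe40 lost theirs without D (0.18 and 0.056). Without a trend Prdm1 and Bhlhe40 lost theirs (both 0.063), and Bhlhe40 also its F test call (0.086), which left 4 members differing between mice. Id2, Id3 and Tbx21 kept their call in mouse A in every fit that includes it. The cause of these changes was not tested.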
